A study of Mus musculus with 2 samples.

Results

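The mitochondrially encoded genes are the 37 genes whose symbols begin with mt- in the mouse annotation, out of 55536 annotated genes in the deposited tables. They comprise 13 genes for proteins, 2 for ribosomal RNAs (rRNAs) and 22 for transfer RNAs (tRNAs), and all 37 were found in the tables and lie on the mitochondrial chromosome, chrM. They were described here in total RNA sequencing of the adrenal gland, the paired endocrine organ that makes steroid hormones in its cortex and catecholamines in its medulla. The glands came from 2 female mice of the hybrid strain B6CASTF1/J at an age of 4 days, which formed 1 group of 2 biological replicates with no other genotype, treatment or time point. Per the labels, 300 ng of total RNA went into each stranded library, which was reduced in ribosomal RNA and carried ERCC spike-ins.

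The mitochondrial genome is a small circle, inherited through the mother, that is transcribed from both strands into long precursors. Transfer RNAs stand between most of the genes for proteins and rRNAs, and their excision releases the messengers and rRNAs, a scheme known as the tRNA punctuation model. The proteins are core subunits of respiratory complexes I, III, IV and V, and in the adrenal cortex the inner membrane that holds these complexes also carries the cytochrome P450 enzymes of the first and last steps of steroid synthesis. Pieces of the mitochondrial genome have been inserted into the nuclear chromosomes during evolution and stand in the annotation as pseudogenes, and such nuclear copies matter to the values below.

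The labels leave the animal behind replicate 2 unclear. Its library is described with the same animal number as replicate 1 and its tissue with a different one, and a single donor entry covers both. The libraries are taken as 2 animals, from their numbering as biological replicates; if they come from the same animal, the spread between them is technical. With 1 group there was no condition to compare, and no p-value is given. The markers of the adrenal cortex (6 genes, Hsd3b1 and Star among them) and medulla (4 genes) were all at 75.4 TPM or more in both libraries. Markers of other organs differed between the libraries. The 5 pancreas markers summed to 0.51 TPM in replicate 2, with 2 of them at 0, and to 3293 TPM in replicate 1. The 5 kidney markers summed to 8.83 and 86.4 TPM, the 3 liver markers to 354.6 and 87.4 TPM and the 4 skeletal muscle markers to 1358 and 208 TPM, in replicates 2 and 1. The 3 markers of brown fat, which surrounds the gland, summed to 214.6 and 208 TPM. The part of these tissues in the differences between the animals was not tested.

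The mitochondrial genes took 10.3% of all expected counts in replicate 2 (95% exact binomial interval 10.28 to 10.30%) and 9.21% in replicate 1 (9.20 to 9.22%), a mean of 9.75 ± 0.768% (SD, n = 2). An expected count is the number of read fragments that the authors' quantification assigned to a gene, and it need not be whole. These were 3389359 of 32931868 counts in replicate 2 and 2930800 of 31838341 in replicate 1. The rRNAs held the larger part, with 7.69% of all counts in replicate 2 and 6.75% in replicate 1. The 13 protein genes held 2.60% and 2.46%. The difference between the libraries lay outside their counting intervals, but with 2 animals its relation to the spread among animals could not be tested. In bulk tissue, fewer cells of a type and less RNA per cell cannot be told apart, so a share of this kind describes the whole gland and not a cell.

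Of the 37 genes, 15 reached 1 TPM in both animals, which were all 13 protein genes, both rRNAs and none of the 22 tRNAs, while 26.4% of all annotated genes did so. TPM is a level per length: the counts of a gene are divided by its effective length, the length over which a fragment could start, and scaled so that all sequences of a library sum to the same total. The deposited gene tables deducted 99 bases from the length of each gene to give it. On this scale mt-Co1 was the highest of all protein-coding genes in both animals, and 8 of the 12 highest in replicate 2 and 7 in replicate 1 were mitochondrial. These are deposited levels, without the counts given to nuclear copies, which are described below. The sum over the 13 protein genes was 29146 TPM in replicate 2 and 28191 in replicate 1, a mean of 28669 ± 676 TPM.

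**Figure D1:**
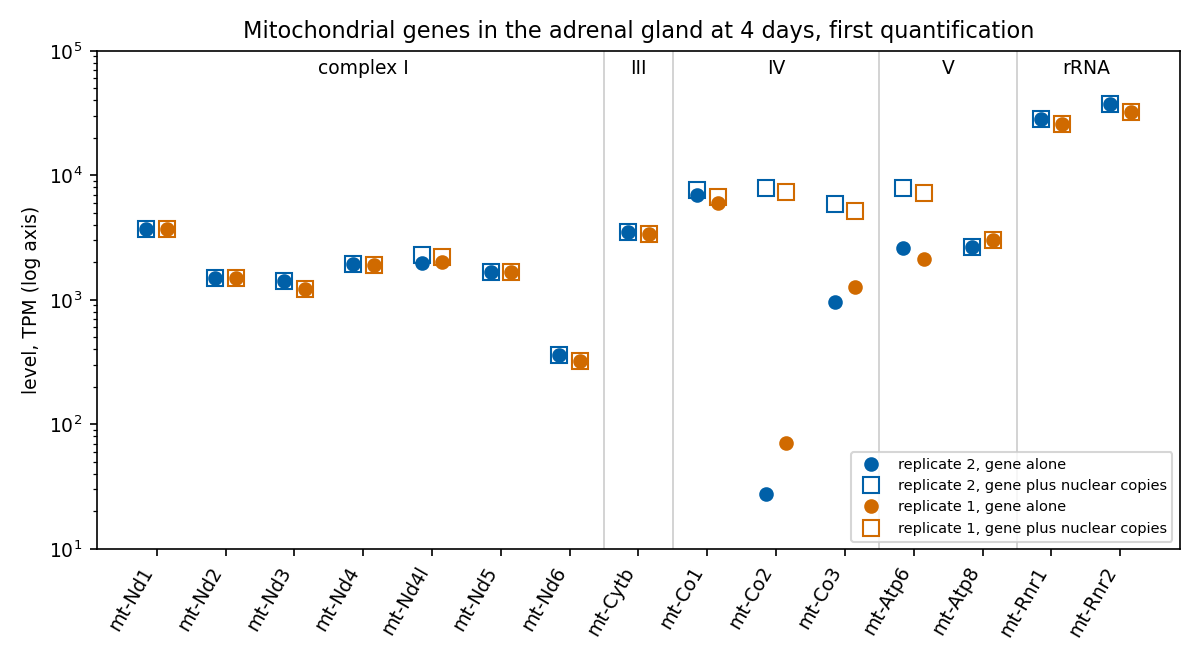
Level of the 15 detected mitochondrial genes in TPM (log axis) in replicate 2 (blue) and replicate 1 (orange), grouped by respiratory complex. Filled circles are the deposited TPM of the gene, and open squares are the level after the counts of its nuclear copies are added; mt-Co2 lies at 27.8 and 71.4 TPM alone and at 7837 and 7308 TPM with its copies.

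The rRNAs of the mitochondrial ribosome had the highest levels among the 37 genes. mt-Rnr1, the RNA of the small subunit (chrM:70-1024), had 28279 TPM in replicate 2 and 25670 TPM in replicate 1. mt-Rnr2, the RNA of the large subunit (chrM:1094-2675), had 37326 and 32222 TPM, which gave it rank 4 among all sequences in the tables in both animals. The level of mt-Rnr2 over that of mt-Rnr1 was 1.32 in replicate 2 and 1.26 in replicate 1, and both rRNAs were higher in replicate 2. The rRNAs together had 2.96 counts for each count of a mitochondrial protein gene in replicate 2 and 2.74 in replicate 1. These levels follow a step that removes ribosomal RNA from the libraries, and its effect on the mitochondrial rRNAs was not tested.

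Complex I, the NADH dehydrogenase through which electrons enter the respiratory chain, has 7 subunits of mitochondrial origin. Their level averaged 1788 TPM per gene in replicate 2 and 1756 TPM in replicate 1 (mean 1772 ± 22.9). mt-Nd1 (chrM:2751-3707) was the highest, with 3671 and 3679 TPM. mt-Nd4l (1960 and 2022 TPM), mt-Nd4 (1940 and 1892 TPM), mt-Nd5 (1685 and 1663 TPM), mt-Nd2 (1488 and 1498 TPM) and mt-Nd3 (1416 and 1216 TPM) followed, at levels between 1216 and 2022 TPM. In each of these genes but mt-Nd3 the 2 animals differed by less than 100 TPM. mt-Nd6, which encodes a further membrane subunit, was the lowest of the 7, with 358 TPM in replicate 2 and 322 TPM in replicate 1.

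mt-Nd6 (chrM:13552-14070) is the only protein gene read from the minus strand; the other 12 and both rRNAs are read from the plus strand. Its 3′ end overlaps that of mt-Nd5 on the opposite strand by 14 bases. mt-Nd5 stood 4.71 times above mt-Nd6 in replicate 2 and 5.16 times in replicate 1. The libraries were stranded, but the sources used here do not say whether counting used the strand. Without it, reads of opposite strands cannot be told apart over any part of mt-Nd6, the overlap included. The level of mt-Nd6 and the ratios to mt-Nd5 could then hold counts of plus-strand RNA. Of the 22 tRNA genes, 14 lie on the plus strand and 8 on the minus strand.

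Complex III, which passes electrons to cytochrome c, has 1 mitochondrially encoded subunit, cytochrome b. Its gene mt-Cytb (chrM:14145-15288) had 3489 TPM in replicate 2 and 3403 TPM in replicate 1, rank 3 among the 13 protein genes. No stretch of 100 bases of mt-Cytb was found in any nuclear transcript of the annotation. The same held for mt-Nd1, mt-Nd5, mt-Nd6, mt-Atp8 and both rRNAs.

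Complex IV, the cytochrome c oxidase that reduces oxygen, draws its 3 core subunits from mt-Co1, mt-Co2 and mt-Co3. Their deposited levels were far apart although they form 1 enzyme. mt-Co1 (chrM:5328-6872) had 6880 TPM in replicate 2 and 6033 TPM in replicate 1. mt-Co3 (chrM:8607-9390) had 959 and 1276 TPM. mt-Co2 (chrM:7013-7696), whose protein carries the copper site that takes electrons from cytochrome c, had 27.8 TPM in replicate 2 and 71.4 TPM in replicate 1, the lowest value among the 15 detected genes in both animals. These low values stood beside high counts in nuclear pseudogenes of the same sequence.

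Nuclear copies were sought as annotated genes off chrM whose transcript matched a mitochondrial transcript at 95% identity or more over at least 100 bases. There were 11 for 9 of the protein genes, and 7 of them held 100 counts or more in either library in either of the deposited quantifications, while the other 4 stayed below. The gene tables are called the first quantification, and a further deposited transcript table, summed to genes, the second. Of those 7, 6 lie in a block on the minus strand of chromosome 1 (chr1:24611535-24616197, 4663 bases, build mm10), which also holds the copy of mt-Nd3. Along its strand the copies follow the order of the genes on chrM, from the end of mt-Co1 through mt-Co2, mt-Atp6, mt-Co3, mt-Nd3 and mt-Nd4l into mt-Nd4. mt-Atp8, which lies between mt-Co2 and mt-Atp6 on chrM, has no annotated copy in the block. The copy of mt-Co2, Gm28661, matched 681 of its 684 bases without a difference. The copy of mt-Co3, Gm28437, matched 783 of 784 bases and the copy of mt-Atp6, Gm10925, matched 678 of 681 bases, again without a difference.

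The ends of mt-Co2 and mt-Co3 show how little separates gene and copy in the annotation. Sequences are those of the GENCODE M21 transcripts, written 5′ to 3′, and capitals mark the bases of the mitochondrial gene that the annotated copy lacks. In mt-Co2 these are the stop codon. In mt-Co3 it is a single T, an incomplete stop codon of the kind that polyadenylation completes in mitochondrial messengers.
mt-Co2 (chrM:7649-7696, plus strand): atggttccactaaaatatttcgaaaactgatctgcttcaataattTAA
Gm28661 (chr1:24614885-24614929, minus strand): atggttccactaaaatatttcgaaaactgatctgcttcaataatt
mt-Co3 (chrM:9345-9390, plus strand): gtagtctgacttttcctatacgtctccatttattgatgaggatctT
Gm28437 (chr1:24613189-24613233, minus strand): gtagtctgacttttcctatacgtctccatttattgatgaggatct

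The partial copies of mt-Co1 and mt-Nd3 each carry a single difference over the matched bases. Gm29216 matches the last 483 bases of mt-Co1 with the difference A1066T, and Gm28438 matches 345 bases of mt-Nd3 with the difference T3C. Positions count from 1 at the first base of the mitochondrial gene, whose base is given first, and capitals mark the differing base.
mt-Co1 (chrM:6390-6418, plus strand): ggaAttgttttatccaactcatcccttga
Gm29216 (chr1:24616160-24616188, minus strand): ggaTttgttttatccaactcatcccttga
mt-Nd3 (chrM:9459-9486, plus strand): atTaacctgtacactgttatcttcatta
Gm28438 (chr1:24613092-24613119, minus strand): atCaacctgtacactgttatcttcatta

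Nearly every stretch of 100 bases of 5 genes also stood in a nuclear transcript: 582 of 585 stretches of mt-Co2, 684 of 685 of mt-Co3, 579 of 582 of mt-Atp6, 195 of 198 of mt-Nd4l and 243 of 249 of mt-Nd3. The share was 60.8% in mt-Nd4, 30.8% in mt-Co1 and 3.19% in mt-Nd2. A read from such a stretch cannot be told apart from a read of the copy by its sequence alone, and the deposited values divide these reads by an estimate. No stretch was shared between different mitochondrial genes.

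The estimates gave most counts of mt-Co2 to its copy. mt-Co2 had 517 expected counts in replicate 2 and 1287 in replicate 1, while Gm28661 had 145378 and 130268. The copies thus held 99.6% of the counts of gene and copies together in replicate 2 and 99.0% in replicate 1. For mt-Co3 the copies held 83.7% and 75.5%, for mt-Atp6 66.8% and 71.0%, and for mt-Co1 10.1% and 9.10%. For mt-Nd4l they held 14.1% and 8.16%, with 2032 and 1095 counts in its copy Gm10222. Gm13340, a copy of mt-Co1 on chromosome 2, had 64.5 and 62.8 counts in the first quantification, and 195 and 198 in the second. For mt-Nd4 and mt-Nd3 the copies had 0 expected counts in both animals although most of their stretches are shared. Over the 13 protein genes, 388032 counts in replicate 2 and 333763 in replicate 1 stood in nuclear copies, which was 31.2% and 29.9% of genes and copies together.

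The authors' posterior mean, another estimate in the same tables, divided the reads differently. It gave mt-Co2 19684 counts in replicate 2 and 19198 in replicate 1, with posterior SDs of 3341 and 3842. mt-Co3 had posterior mean counts of 52783 ± 5894 in replicate 2 and 46358 ± 3530 in replicate 1, and mt-Atp6 had 55078 ± 4213 and 45326 ± 2519 (each with its posterior SD). The expected counts of mt-Co2, mt-Co3 and mt-Atp6 lay below these means by more than the posterior SD in both animals. The posterior TPM of mt-Co2 was 1035 in replicate 2 (deposited credibility interval 709.6 to 1392) and 1043 in replicate 1 (635.6 to 1408), against deposited TPM of 27.8 and 71.4. The sum of gene and copies was nearly the same by both estimates.

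**Figure D2:**
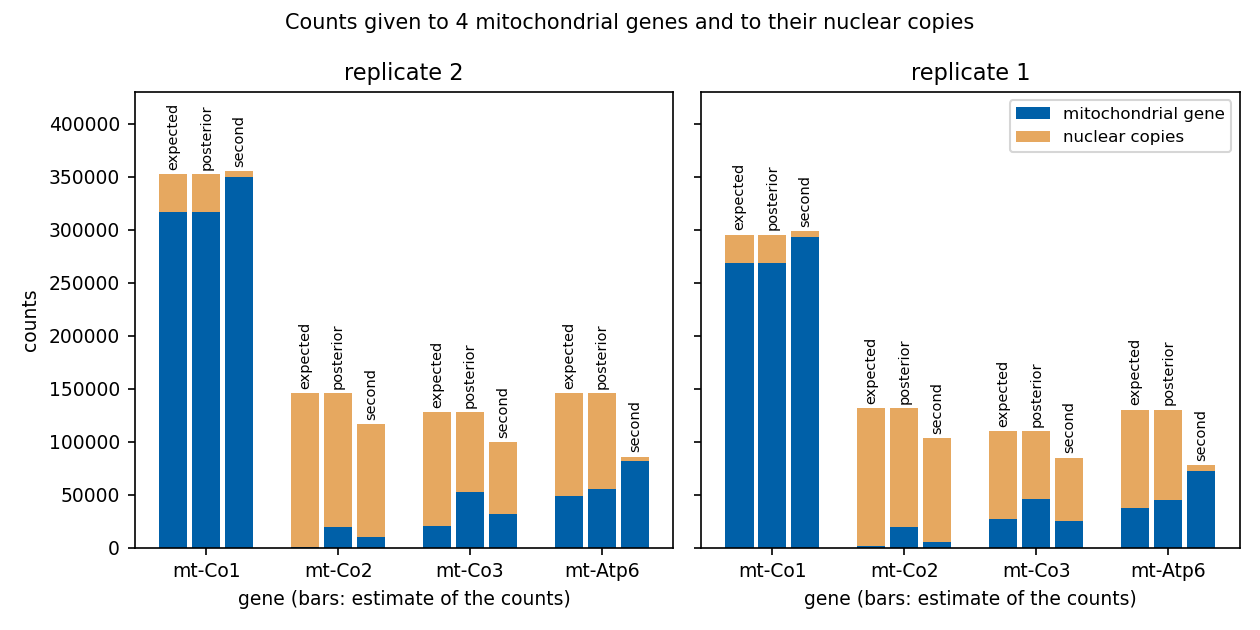
Counts of 4 mitochondrial genes (blue) and of their nuclear copies (tan, stacked on top) in replicate 2 (left) and replicate 1 (right), by 3 estimates: expected counts, posterior mean counts and the second quantification. The expected and posterior bars of a gene have nearly the same height in each animal, and the blue part changes; mt-Co2 has 517, 19684 and 10023 counts in replicate 2.

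With the counts of the copies added in the first quantification, mt-Co1, mt-Co2 and mt-Atp6 had levels close to each other. Their combined levels in the second quantification are given below. The combined level, over the effective length of the mitochondrial gene, was 7837 TPM in replicate 2 and 7308 TPM in replicate 1 for mt-Co2 (mean 7573 ± 374). It was 7895 and 7272 TPM for mt-Atp6 (7584 ± 441) and 7651 and 6637 TPM for mt-Co1 (7144 ± 717), so the ranges of these 3 genes overlapped. mt-Co3 followed with 5879 and 5209 TPM (5544 ± 474), below the lower animal of each of the 3. The next genes, mt-Nd1 and mt-Cytb, had no copy that added to their level, and mt-Nd6 was the lowest by combined level. Among the 13 protein genes, mt-Co2 had rank 13 by deposited TPM and rank 2 by combined level, and mt-Atp6 had rank 5 and rank 1. mt-Co3 had rank 11 and rank 4, and mt-Co1 had rank 1 and rank 3. Complex IV averaged 2622 TPM per gene in replicate 2 and 2460 TPM in replicate 1 by the deposited values, and 7123 and 6385 TPM per gene with the copies. Complex I averaged 1834 and 1782 TPM with the copies, close to its deposited values.

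Complex V, the ATP synthase, has 2 mitochondrially encoded subunits of its membrane part. Their genes overlap by 43 bases and are known to share a bicistronic messenger. mt-Atp8 (chrM:7766-7969) had 2653 TPM in replicate 2 and 3005 TPM in replicate 1, while mt-Atp6 (chrM:7927-8607) had 2620 and 2112 TPM alone. The combined level of mt-Atp6 was thus above the level of mt-Atp8 in both animals, and the deposited level of mt-Atp6 was below it in both. The overlap is shown because its bases belong to both genes, though a stretch of 100 bases could not lie within it. Capitals mark the start codon of mt-Atp6 and the stop codon of mt-Atp8.
mt-Atp8 and mt-Atp6 overlap (chrM:7927-7969, plus strand): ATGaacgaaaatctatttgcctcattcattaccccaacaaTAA

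The other bicistronic pair, mt-Nd4l and mt-Nd4, overlaps by 7 bases. Its levels in the first quantification were close: 1960 TPM for mt-Nd4l against 1940 TPM for mt-Nd4 in replicate 2, and 2022 against 1892 TPM in replicate 1. With its copy mt-Nd4l was at 2282 and 2201 TPM in replicates 2 and 1. The second quantification set the pair far apart, with mt-Nd4l at 42.0 and 48.7 TPM against mt-Nd4 at 3344 and 3228 TPM. mt-Atp6 and mt-Co3 overlap by 1 base with no tRNA between them.

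All 22 tRNA genes were listed at 0 counts in both animals. They carry the amino acids of mitochondrial protein synthesis and are 59 to 75 bases long. Their effective length in the gene tables was 0, since each is shorter than the 99 bases deducted, so these values give no level for any tRNA. The second quantification gave them effective lengths of 21.4 to 24.8 bases in replicate 2 and also listed all 22 at 0. The shortest and the longest are shown whole for scale: a stretch of 100 bases could not lie within either.
mt-Ts2, serine (chrM:11613-11671, plus strand): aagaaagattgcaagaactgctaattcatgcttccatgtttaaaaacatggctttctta
mt-Tl1, leucine (chrM:2676-2750, plus strand): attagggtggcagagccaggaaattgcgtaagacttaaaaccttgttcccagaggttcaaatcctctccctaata

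The second deposited quantification started from the reads themselves, as the notes deposited with the tables say. The mitochondrial share was 10.5% in replicate 2 and 9.29% in replicate 1 there. It placed 17.3% and 17.9% of the counts of protein genes and copies in the copies, a smaller part than the first quantification did. mt-Co2 had 10023 counts in replicate 2 and 5434 in replicate 1, against 106942 and 98119 in Gm28661. mt-Atp6 held most of its counts itself, and its copy Gm10925 had 3970 and 5892, or 4.61% and 7.54%. The copies of mt-Co3 held 67.8% and 70.6%. Gm29216, the copy of mt-Co1, had 5119 and 4833 counts, against 35425 and 26835 in the first quantification. Gm28439, the copy of mt-Nd4, which had 0 counts in the first quantification, had 2591 and 2671 in the second.

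Per gene, the first quantification over the second was between 0.898 and 1.25 in counts in replicate 2 for the long genes without a shared stretch. In replicate 2 the ratio was 1.02 for mt-Nd5, 1.04 for mt-Cytb, 1.17 for mt-Nd1, 0.898 for mt-Rnr2 and 1.25 for mt-Rnr1, the farthest from 1 of these. It was 0.0516 for mt-Co2, 0.591 for mt-Atp6 and 0.654 for mt-Co3 in replicate 2, and 0.237, 0.524 and 1.08 in replicate 1. With the copies added it was 1.25 for mt-Co2, 1.70 for mt-Atp6 and 1.29 for mt-Co3 in replicate 2. In replicate 1 it was 1.27, 1.67 and 1.29, in the same order. For mt-Co1 in replicate 2 it was 0.906 alone and 0.992 with the copies. The shortest genes lay farthest above 1. In replicate 2 mt-Nd3 (348 bases) had a ratio of 2.63 and mt-Nd4l (297 bases) a ratio of 202. mt-Atp8 (204 bases), with 8869 counts in replicate 2 and 9714 in replicate 1 in the first quantification, was listed at 0 in the second in both animals. For mt-Nd3, mt-Nd4l and mt-Atp8 the second quantification used effective lengths of 83.5, 65.8 and 44.8 bases in replicate 2. The first used 249, 198 and 105 bases. The part of these lengths in the ratios was not tested.

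**Figure D3:**
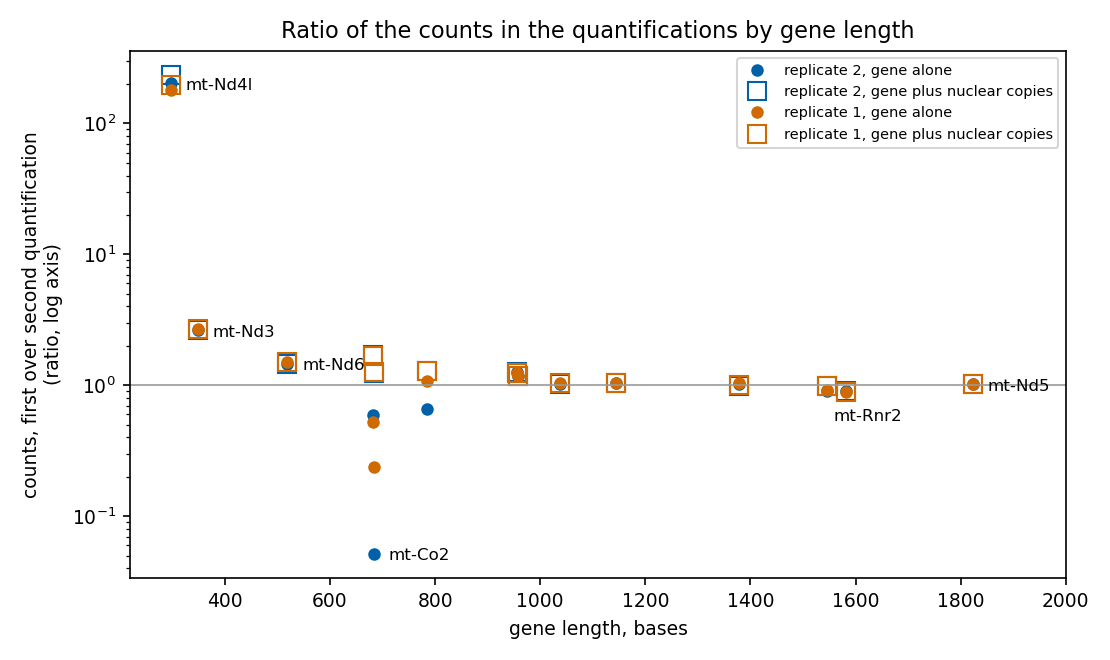
Ratio of the counts in the first over the second quantification (log axis) against gene length in bases, for 14 mitochondrial genes in replicate 2 (blue) and replicate 1 (orange); mt-Atp8, listed at 0 in the second, is not drawn. Circles are the genes alone and squares the genes plus their nuclear copies; mt-Nd5, the longest, lies at 1.02 in both animals, and mt-Nd4l, the shortest, at 202 in replicate 2.

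On the TPM scale, 5 of the 14 genes at 1 TPM or more in both quantifications differed by more than 2-fold between them, and 29.7% of all such genes did. mt-Co2 (log2 ratio −4.44), mt-Atp6 (−2.11), mt-Co3 (−1.38) and mt-Nd6 (−1.08) were lower in the first, which 29.4% of all such genes were, and mt-Nd4l (5.46) was higher. The count of members past 2-fold is thus close to the background. The median over 12 protein genes was −0.87, against −0.86 over all genes, so that relative to the median of all genes mt-Nd6 was at −0.22 and mt-Co2 at −3.57. In the second quantification mt-Co1 had 13067 and 11400 TPM in replicates 2 and 1. With the copies added, mt-Co2 had 15036 and 13802 TPM there, mt-Co1 13266 and 11595, mt-Atp6 11167 and 10507, and mt-Co3 9964 and 8838. mt-Co2 combined was the highest of the mitochondrial protein genes in both animals. By mean combined level mt-Atp6 had rank 3 there, against rank 1 in the first quantification.

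Between the animals, the mitochondrial genes were mostly close. Their log2 ratio, replicate 2 over replicate 1, was taken from expected counts after TMM scaling, which takes most genes as unchanged. Its median was 0.06 over the 13 protein genes and 0.02 over the 13734 genes whose mean count reached 100. Under spike-in scaling, which shifts all genes alike, the median of the protein genes was −0.016. The median over all genes was not taken under that scaling. By TMM scaling the ratio was 0.18 for mt-Rnr1 and 0.26 for mt-Rnr2. Of the 15 genes, 11 were higher in replicate 2, as were 55.3% of all genes at that mean count. The number ran from 8 under spike-in scaling to 14 with posterior mean counts or with the copies added. The 55.3% holds for TMM scaling of expected counts, and the share over all genes was not taken under the other settings. Among the genes with no shared stretch the ratios were 0.04 for mt-Nd1, 0.06 for mt-Nd5, 0.08 for mt-Cytb, 0.19 for mt-Nd6 and −0.14 for mt-Atp8; under spike-in scaling mt-Nd1 was at −0.04 and mt-Nd5 at −0.016. mt-Nd2, with few shared stretches, was at 0.04, and at −0.04 under spike-in scaling. mt-Nd4 was at 0.08, and the counting interval of mt-Nd4l spanned 0 (−0.037 to 0.035). mt-Co1 (0.23) and mt-Nd3 (0.26) were higher in replicate 2 by every estimate.

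Of the 15 genes, 1 differed by more than 2-fold, which 3.21% of all genes at that mean count did, and 1.71% were lower in replicate 2. It was mt-Co2, lower in replicate 2 at a log2 value of −1.32 (95% counting interval −1.47 to −1.17). The ratio was 0.03 by posterior mean counts, 0.15 with the copies added and 0.91 in the second quantification, so its direction turned with the division of the reads. mt-Co3 also turned, with −0.37 by expected counts, 0.18 by posterior mean counts, 0.22 with the copies and 0.38 in the second quantification. mt-Atp6 kept its direction, with 0.36, 0.28, 0.16 and 0.21 in the same order. The counting interval does not cover the division of reads between gene and copy.

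**Figure D4:**
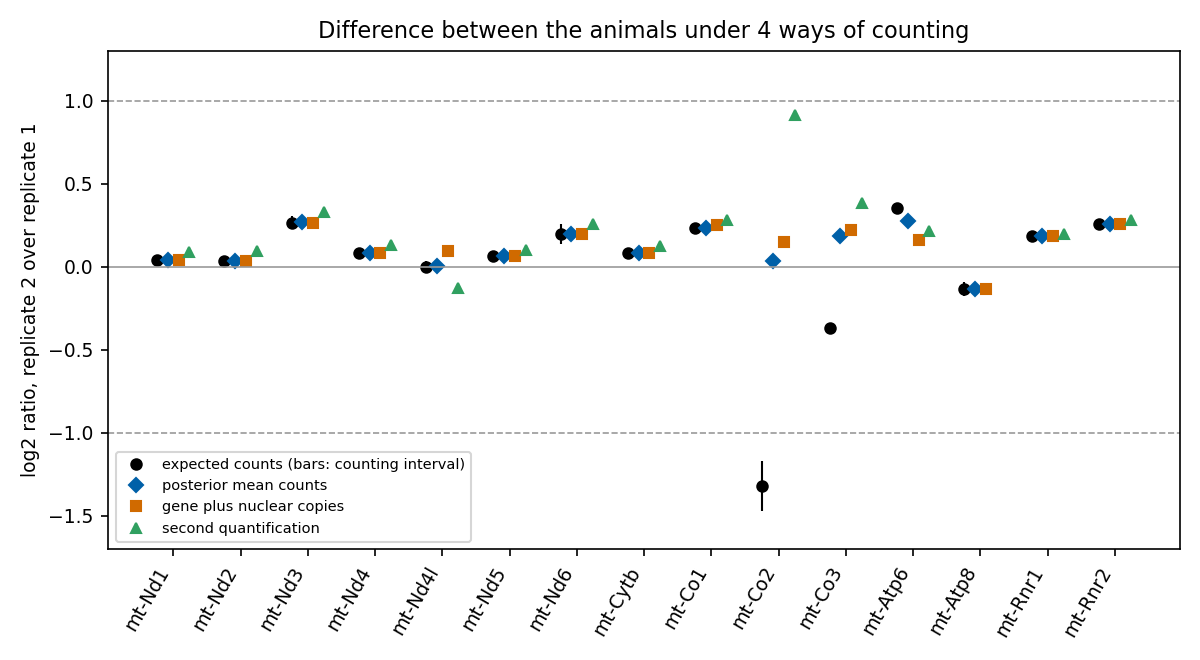
Log2 ratio of replicate 2 over replicate 1 for 15 mitochondrial genes under 4 ways of counting; black bars are 95% counting intervals and dashed lines mark 2-fold. The spread over the symbols is widest for mt-Co2, between −1.32 and 0.91, and for mt-Co3, between −0.37 and 0.38; mt-Atp8 has no value in the second quantification.

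The nuclear genes that serve mitochondrial gene expression were measured in the same libraries. All 16 genes of mitochondrial transcription and replication were detected, with a total of 224 TPM in replicate 2 and 212 TPM in replicate 1. Polg, the catalytic subunit of the mitochondrial DNA polymerase, had 39.5 and 33.5 TPM. Tfam, which packs mitochondrial DNA and starts its transcription, had 26.7 and 27.5 TPM. Ssbp1, the single-strand binding protein, had 25.1 and 26.9 TPM, and Polrmt, the mitochondrial RNA polymerase, had 23.2 and 21.8 TPM. Each stood well below the mitochondrial protein genes other than mt-Co2, whose lowest, mt-Nd6, had 322 TPM or more.

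All 22 matched genes of mitochondrial RNA processing and stability were detected as well, with sums of 498 TPM in replicate 2 and 480 TPM in replicate 1. Hsd17b10, a subunit of the enzyme that cuts the 5′ ends of mitochondrial tRNAs, had 62.7 and 55.7 TPM. Slirp, which stabilises mitochondrial messengers together with Lrpprc, had 61.6 and 56.4 TPM. Grsf1, an RNA granule protein that in human cells binds the transcript of the MT-ND6 gene among others, had 47.9 and 50.2 TPM. Ptcd3, a protein of the small mitochondrial ribosomal subunit, had 44.6 and 46.2 TPM. None of the genes of these lists differed by 2-fold between the animals, and the median log2 ratio was 0.08 in both lists, against 0.02 over all genes.

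The 17 mitochondrial tRNA synthetases, which load the tRNAs that had no level here, were all detected, at a sum of 236 TPM in replicate 2 and 238 TPM in replicate 1. The highest in the first quantification were Iars2 (35.4 and 34.0 TPM), Fars2 (28.9 and 29.3 TPM), Lars2 (22.5 and 26.4 TPM) and Vars2 (19.8 and 20.6 TPM). They load isoleucine, phenylalanine, leucine and valine. The order changed in the second quantification, where Lars2 had 107 and 134 TPM against 57.3 and 58.0 TPM for Iars2. None differed by 2-fold. The 6 listed nuclear subunits of the respiratory complexes had a summed level of 2188 TPM in replicate 2 and 1922 in replicate 1. They include Sdha (176 and 160.5 TPM) of complex II, which has no mitochondrially encoded subunit. Atp5b and Atp5a1, the catalytic-part subunits of ATP synthase, had 906 and 770 TPM and 390.4 and 358.5 TPM. Cox4i1 of complex IV had 446 and 389 TPM and Uqcrc1 of complex III had 193 and 169.6 TPM. All 6 were higher in replicate 2, as were 55.3% of all genes. Their median log2 ratio was 0.21, against 0.02 over all genes, and none reached 2-fold.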

How the data were processed

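Per the file headers, the deposited gene tables give an expected count, TPM, a posterior mean count with its SD (treated as a score) and credibility bounds for 81881 sequences of build mm10 and annotation M21. A second deposited transcript table gives an estimated count and TPM, and was summed to genes. No aligner, quantifier or strand setting is named in the sources used here. The expected counts summed to 32931868 in replicate 2 and 31838341 in replicate 1, where 0 counts allow a share of up to 9.11e-06% and 9.42e-06% (3 counts). Intervals are 95% Clopper-Pearson intervals and, like these limits, cover counting error only.

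All 37 symbols beginning with mt- were members. The members and lists were chosen with earlier results of these data known. Of each list of nuclear genes that serve mitochondria the 4 highest by mean TPM of the first quantification were named (none was past 2-fold). Sdha was named as well. Cell type markers are given as sums, with examples. Of the 23 RNA processing symbols 1, Prorp, is listed as 1110008L16Rik, also in the list. Nuclear copies were found with BLAST+ 2.17.0 among GENCODE M21 transcripts, and those with 100 counts or more were named; others named were chosen after their values were seen. Stretches of 100 bases were compared as exact words on the transcripts' strand. Combined levels add the copies' counts to the gene's and divide by the gene's effective length. Log2 ratios of replicate 2 over replicate 1 used expected counts, TMM factors of 0.985 and 1.02 in replicates 2 and 1 (edgeR 4.0.16) and a prior of 0.5 counts; past 2-fold is a rule of size at a mean count of 100, not a test. Ratios of the quantifications used TPM with a pseudocount of 0.01. Alternatives included DESeq2 1.42.0 size factors and spike-in scaling. The fold rule was checked on simulated data that held no reads shared between genes, so the check does not cover the division of reads. Other tools were scipy 1.17.1, R 4.3.3, pandas 2.3.3, Python 3.11.15, matplotlib 3.10.9 and numpy 2.4.6.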

Additional observations from a re-analysis of the deposited data

How the results depend on the processing

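The posterior mean counts, the addition of nuclear copies to members in every result, and the rescaling without Rn7s1, Rn7s2 and Rn7sk were chosen after seeing the data; the other alternatives were planned. The mitochondrial share (mean 9.75%) was 10.9% with the copies and 9.21 to 10.3% for single animals. The summed TPM of the 13 protein genes (28669) was 30454 by posterior mean TPM, 50371 in the second quantification, 30907 per full length, 30558 rescaled without rRNAs and tRNAs, 46775 with the copies, and 28191 to 29146 for single animals. The number of members detected was 14 in the second quantification and 15 otherwise. The 1 member past 2-fold between the animals became 0 in the second quantification, with posterior mean counts and with the copies, and was kept under the scaling, filter and prior alternatives. That member, mt-Co2 (−1.32), reversed to 0.91 in the second quantification, 0.032 by posterior mean counts and 0.15 with the copies. The median log2 ratio of the protein genes between the animals (0.06) was −0.016 by spike-in scaling, 0.019 by TPM, 0.17 in the second quantification, 0.081 by posterior mean counts and 0.10 with the copies. The value in the second quantification leaves out mt-Atp8, which had no counts there. The median of the first over the second quantification (−0.87) was 0.052 in counts scaled to the library total, −0.60 per full length, −0.78 with the copies and −0.22 without Rn7s1, Rn7s2 and Rn7sk, and −0.87 to −0.86 for single animals. Where no value shows it, the cause was not tested. No paired analysis was possible because there is 1 group. With 2 animals and a label conflict, differences between the animals carry no test, and the levels of mt-Co2, mt-Co3 and mt-Atp6 depend on how reads shared with nuclear copies are divided.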

Other observations

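The small non-coding RNAs Rn7s1, Rn7s2 and Rn7sk, which belong to the signal recognition particle and to a regulator of transcription elongation, took 36.0% of all TPM in replicate 2 and 36.1% in replicate 1 in the first quantification. In the second quantification they took 0.000526% in replicate 2 and 0.000819% in replicate 1.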
